A study of Drosophila melanogaster with 9 samples.

Results

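The cuticle protein genes of Drosophila melanogaster were described in whole larvae with and without a working Atg6 gene, a core autophagy gene whose product acts with a lipid kinase. Members were chosen by name alone: loci whose gene name begins with Cpr, Lcp, Ccp84, Edg or Twdl followed by its locus code. This took 117 of the 15809 loci in the expression table, carrying 119 of 16414 gene names. They comprised 70 Cpr, 12 Lcp, 7 Ccp84A, 3 Edg and 25 Twdl loci. The larvae were wandering animals of the third instar, raised on standard food at 25 degrees. The 3 genotypes, all in the w118 background, were w118 itself (wild type), Atg6-/+ (titled Atg6D/+, heterozygote) and Atg6-/- (titled Atg6D/Atg6D, homozygote), each with 3 RNA libraries. The labels give neither the sex nor the number of larvae in a library, nor any stage finer than wandering. Values are FPKM, fragment counts divided by transcript length and library size, so that levels of different genes can be set side by side.

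The insect cuticle is a sheet of chitin fibres held in a matrix of structural proteins, secreted by the epidermis and other ectodermal tissues such as the trachea. Most of these proteins carry the Rebers-Riddiford chitin-binding domain, which defines the Cpr family and is also found in the Lcp (larval cuticle protein), Ccp84A and some Edg proteins. The Tweedle (Twdl) proteins form a separate family with its own domain. A new cuticle is laid down at every moult, and pulses of the steroid hormone ecdysone set which genes are used. Edg genes were named for their dependence on ecdysone, and Edg78E and Edg84A encode pupal cuticle proteins.

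All 119 names were placed by the BDGP6 annotation of Ensembl release 115 within 5000 bases of their deposited locus. They are small genes: 75 have 2 exons and 16 have a single exon. The encoded proteins have a median of 194 residues, from 92 to 1231, and the medians differ by family, from 105 residues for Lcp to 274 for Twdl. Chromosome arm 3L holds 45 of the genes, 3R 33, 2R 27, X 8 and 2L 6. Neighbouring copies were merged into a single locus by the deposited table in several cases, among them Lcp1 with Lcp2, Lcp65Ag1 with Lcp65Ag2, and Cpr67Fa1 with Cpr67Fa2. Lcp9 shares a locus with egg, which encodes a histone methyltransferase, so the values of those genes cannot be separated. Reads of near-identical copies could also be divided between separate loci, which makes the levels of Lcp65Ag3 and Lcp65Ab2 uncertain.

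Atg6 followed the labels. Wild types 1, 2 and 3 had 16.1, 14.3 and 17.0 FPKM, the heterozygotes 7.58, 7.98 and 8.89, and the homozygotes 0.027, 0 and 0.056. The depth of the libraries relative to wild type 1 ran from 0.776 to 1.27, and their FPKM sums from 754677 to 1.09906e+06. Libraries of one genotype differed in many tissue genes. The summed FPKM of 7 salivary glue genes, for example, was 53756 to 77767 in wild types, 53163 to 61058 in heterozygotes, and 4090, 24962 and 27829 in homozygotes 1, 2 and 3. In this sum every homozygote was also below every other library. An exact 0 can be a failed estimate in this table, since the abundant storage protein gene Lsp1beta is listed at 0 in heterozygote 3 and homozygote 1 and at 3299 FPKM or more in the other libraries. A lower value in whole larvae cannot tell fewer cells of a type from less RNA per cell.

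Expression was uneven over the families. Of the 117 loci, 49 stayed under 1 FPKM in every library and 4 were listed at 0 throughout, while 16 had a mean of 100 FPKM or more. The filter of 1 FPKM in at least 3 libraries kept 62 loci for testing: 39 Cpr, 11 Lcp, 8 Twdl, 2 Edg and 2 Ccp84A. The remaining 55 were not tested. They include all 12 loci of the TwdlM to TwdlD cluster, and 6 of the 8 loci of the 84A cluster.

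The larval cuticle genes were among the most abundant RNAs of the animal. Lcp4 had 23736, 64051 and 32710 FPKM in wild types 1, 2 and 3. Heterozygotes had 72938, 62132 and 60619, homozygotes 59419, 10022 and 43714. Its level was at rank 1 among all loci in 6 of the 9 libraries and at rank 3 in the other 3. Homozygote 2 was the lowest library, and the wild types spanned both other genotypes except for that library and heterozygote 1. The Lcp1/Lcp2 locus, its neighbour on 2R, had 25802, 47859 and 33618 FPKM in wild types, 43708, 36560 and 41168 in heterozygotes, and 11764, 5262 and 25302 in homozygotes. All homozygotes lay below all other libraries. The log2 fold change against wild type was -1.58 ± 0.54 (SE, n = 3 and 3), which did not pass limma's test with Benjamini-Hochberg adjustment over 10887 loci (adjusted p = 0.068). It passed without homozygote 3 (-2.14, adjusted p = 0.0295).

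Lcp3, between Lcp2 and Lcp4 on 2R, was far weaker than its neighbours. It had 46.9, 117 and 38.1 FPKM in wild types, 247, 278 and 189 in heterozygotes, and 107, 2.00 and 46.5 in homozygotes. The heterozygotes were above all other libraries, but the log2 fold change of 1.96 against wild type had an adjusted p of 0.835 (limma). The Lcp9/egg locus had 935, 8609 and 2077 FPKM in wild types, 11694, 5720 and 5366 in heterozygotes, and 6573, 294 and 2948 in homozygotes. Lcp65Ab2, in the 65A cluster on 3L, had 409, 3128 and 560 in wild types, 4232, 2445 and 2076 in heterozygotes, and 3249, 127 and 1635 in homozygotes. In both loci the spread inside a genotype covered most of the range of the whole series.

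Together the Lcp loci took 6.76, 12.0 and 8.27% of the FPKM sum of wild types 1, 2 and 3. Their share was 12.1, 11.2 and 11.6% for heterozygotes, and 7.60, 2.02 and 7.46% for homozygotes. Heterozygotes were even, while wild type 2 stood above its partners and homozygote 2 far below its own. In each of the 11 tested Lcp loci, wild type 2 was the highest wild type and homozygote 2 the lowest homozygote. The median Lcp log2 fold change was -0.52 for homozygote against wild type, with 3 of 11 above 0. It was 1.23 for heterozygote against wild type, with 11 of 11 above 0, and -1.41 for homozygote against heterozygote; these comparisons share libraries. Over all tested loci the same medians were 0.01, 0.00 and -0.02, with 5546, 5430 and 5236 of 10887 loci above 0. The Lcp loci shared a library order and are not independent, so their sign counts are descriptions.

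**Figure D1:**
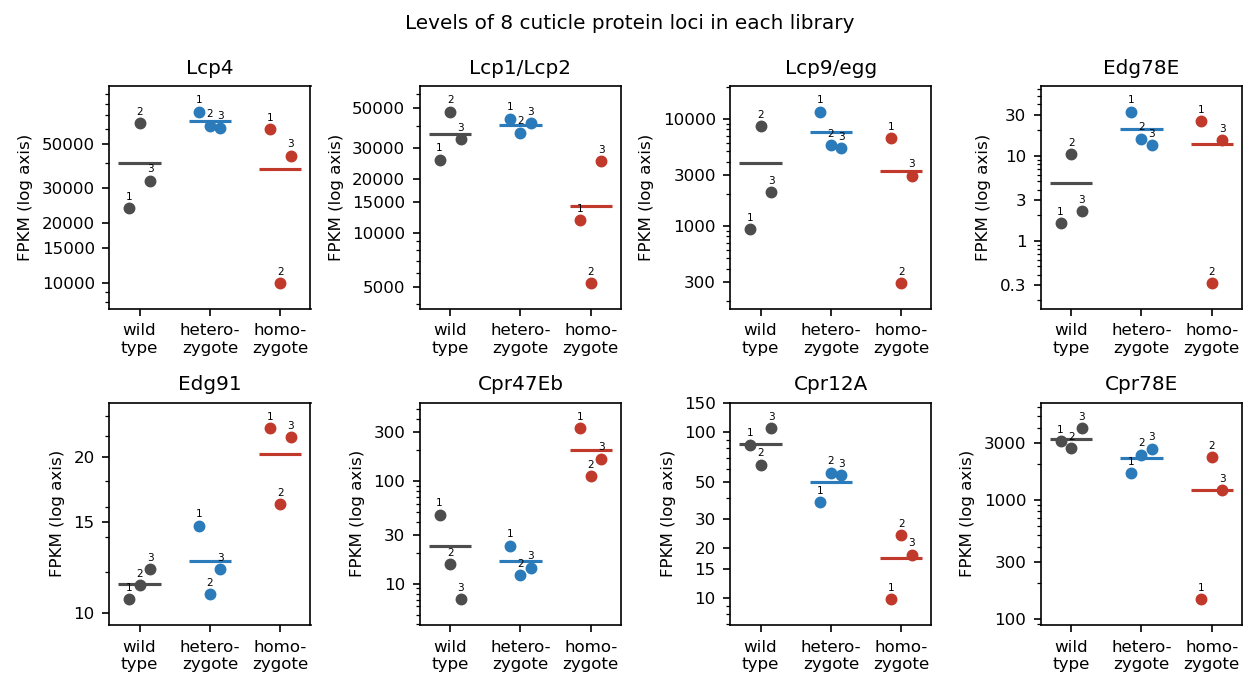
FPKM of 8 cuticle protein loci on log axes; each point is a library, numbered by its replicate, and bars are means of 3 libraries. Lcp4, Lcp9/egg and Edg78E spread widely inside wild type and homozygote, whereas Edg91 and Cpr47Eb are higher and Cpr12A lower in all 3 homozygotes than in any other library.

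The ecdysone-dependent genes were far below the abundant larval loci such as Lcp4, though some Lcp65A loci were as low. Edg78E had 1.62, 10.4 and 2.21 FPKM in wild types, 32.9, 15.9 and 13.3 in heterozygotes, and 25.2, 0.32 and 15.3 in homozygotes. All heterozygotes exceeded all wild types, yet its log2 fold change of 2.14 had an adjusted p of 0.835 (limma), and the homozygotes spanned the wild types and reached into the heterozygotes. As in the Lcp loci, wild type 2 was the highest wild type and homozygote 2 the lowest homozygote. Edg84A was at most 1 FPKM in every library and was not tested.

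Edg91, a glycine-rich cuticle protein gene on 3R (17610856 to 17611511, minus strand), differed from these in being even inside genotypes. It had 10.6, 11.3 and 12.2 FPKM in wild types, 14.7, 10.9 and 12.1 in heterozygotes, and 22.7, 16.2 and 21.8 in homozygotes. Every homozygote was above every other library. It rose by a log2 fold change of 0.77 ± 0.15 (SE) against wild type, with adjusted p = 0.0142, and by 0.64 ± 0.15 against heterozygote, with adjusted p = 0.0433 (limma). The first call was lost without homozygote 3 (adjusted p = 0.0559); the second held only without heterozygote 1 or homozygote 2, and its adjusted p reached 0.163.

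Across all 62 tested loci, homozygotes had 4 loci higher and 6 lower than wild type at an adjusted p under 0.05 (limma). These are 6.45 and 9.68% of the members, while 12.3% of all tested loci rose and 9.67% fell. Both shares lie near or below the background. The counts include Cpr49Ab, TwdlT and the second Cpr50Cb locus, which passed the filter only through the group where each is high. The median within-genotype SD of log2(FPKM + 1) was 0.869 for members against 0.202 for all tested loci. The same test was thus less able to call a given change in members. The shares therefore do not show that members changed less than other loci. Libraries of homozygote and wild type did not overlap for 4 members that were higher, against 19.5% of all loci, and for 9 that were lower, or 14.5% against 20.5%. Counts depended on single libraries: without homozygote 2, 10 members were higher and 9 lower; without wild type 1, 3 were lower; and without wild type 3, 1 was lower. Calls over all loci moved as well, from 1343 higher and 1053 lower to 1653 and 957 without homozygote 2, to 257 lower without wild type 1, and to 143 lower without wild type 3. The members gained without homozygote 2 were Cpr49Af, Lcp65Aa, Cpr76Bc, Cpr65Av, Cpr65Ay and Ccp84Ag on the higher side and TwdlE, Cpr49Ac and Cpr78E on the lower. The median member change of 0.19 was negative without wild type 1 (-0.04), homozygote 1 (-0.22) or homozygote 3 (-0.12), and rose to 0.63 without homozygote 2 and 0.53 without wild type 2. It was 0.06 without wild type 3.

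Cpr47Eb had the largest rise. This gene with a single exon lies on 2R at 11255167 to 11255983 (plus strand) and encodes 214 residues. It had 47.01, 15.6 and 7.04 FPKM in wild types, 23.5, 12.0 and 14.3 in heterozygotes, and 328, 112 and 165 in homozygotes. The lowest homozygote was above the highest other library. The log2 fold change was 3.31 ± 0.66 (SE) against wild type (adjusted p = 0.0150) and 3.43 ± 0.66 against heterozygote (adjusted p = 0.0206). Against wild type the call held in all 9 fits that left out a library but was lost in a fit of only wild type and homozygote (adjusted p = 0.058). Against heterozygote it was lost without heterozygote 2, heterozygote 3, homozygote 1 or homozygote 3, where its highest adjusted p was 0.0942.

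Its tested neighbours in the same cluster, chosen for mention after their values were seen, changed in the same direction but varied more inside genotypes. Cpr47Ec had 5.46, 128 and 12.6 FPKM in wild types, 182, 60.5 and 57.8 in heterozygotes, and 580, 15.3 and 146 in homozygotes. Cpr47Eg had 0.45, 31.6 and 1.05, then 31.0, 9.13 and 7.58, then 405, 1.58 and 28.7 in the same order. Their log2 fold changes for homozygote against wild type were 2.32 and 2.78, and neither passed the test (adjusted p = 0.270 and 0.296, limma). Their within-genotype SDs of log2(FPKM + 1) were 2.05 and 2.61, against 0.917 for Cpr47Eb. Both were highest among wild types in wild type 2, whereas Cpr47Eb was highest in wild type 1. Homozygote 2 was the lowest homozygote in all of these loci.

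Cpr12A, on the X (13543643 to 13544907, plus strand), had the largest fall among called members on the log2(FPKM + 1) scale. With a pseudocount of 0.1 the weaker Lcp65Ad (-3.76) and Cpr49Ab (-3.51) fell more than Cpr12A (-2.34). Cpr12A had 84.3, 63.8 and 106 FPKM in wild types, 37.8, 57.2 and 55.1 in heterozygotes, and 9.85, 23.9 and 18.3 in homozygotes. The 3 genotypes did not overlap, with heterozygotes in between. It fell by 2.27 on the log2 scale against wild type (SE 0.33, adjusted p = 0.00432). That call held under all 11 other settings and whichever of the 9 libraries was left out. Against heterozygote it fell by 1.53 (adjusted p = 0.0320), a call lost without any of heterozygotes 1 to 3 or homozygote 3 (highest adjusted p 0.134). For heterozygote against wild type the change of -0.74 did not pass (adjusted p = 0.835).

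Cpr51A, on 2R, had 48.0, 72.3 and 59.5 FPKM in wild types, 59.6, 54.2 and 61.1 in heterozygotes, and 22.5, 17.1 and 35.2 in homozygotes. Only the homozygotes stood apart, below both other groups. It fell by 1.27 against wild type (adjusted p = 0.0143; 0.0551 without wild type 3 and 0.0619 in a fit of only those genotypes) and by 1.25 against heterozygote (adjusted p = 0.0248). The latter was lost without heterozygote 1, 2 or 3 or homozygote 1, at up to 0.0953. CG30197 overlaps this gene on the opposite strand.

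Lcp65Ad, on 3L, was the called member of the larval family. It had 2.16, 13.2 and 3.81 FPKM in wild types, 5.96, 5.74 and 5.44 in heterozygotes, and 0.20, 0.11 and 0.63 in homozygotes. It fell by 2.21 against wild type (adjusted p = 0.0210) and by 2.37 against heterozygote (adjusted p = 0.0265). The first call was lost without wild type 3 or homozygote 3, at up to 0.0559, and the second without any heterozygote or any homozygote, at up to 0.104. The first was also lost with a pseudocount of 5 (0.0579), quantile normalization (0.0606) or only those genotypes in the fit (0.0777), and the second with a pseudocount of 5 (0.0882) or quantile normalization (0.0732). Like the other tested Lcp loci, it was highest in wild type 2 and lowest in homozygote 2 within those genotypes.

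The other called falls were in weak or moderate genes. Cpr56F had 30.3, 21.5 and 29.4 FPKM in wild types, 11.4, 22.5 and 21.4 in heterozygotes, and 11.4, 12.5 and 10.4 in homozygotes, a fall of 1.16 (adjusted p = 0.0200) that was lost without wild type 1, wild type 3 or homozygote 3 (up to 0.0741). Cpr49Ab had 4.43, 1.64 and 4.04 in wild types, 0.98, 0.65 and 0.82 in heterozygotes, and 0, 0.35 and 0.38 in homozygotes, a fall of 1.76 (adjusted p = 0.00719). Cpr49Ab was also lower in all heterozygotes than in any wild type. It passed the filter of 1 FPKM in at least 3 libraries only through its wild types, the group where it is high. Its call is therefore a description and no support for a fall. Leaving out any wild type removed Cpr49Ab from the test. With no filter its adjusted p was 0.00809 (limma). TwdlT had 1.71, 1.497 and 2.14 in wild types, 0.86, 1.88 and 1.14 in heterozygotes, and 0.20, 0.85 and 0.39 in homozygotes. It fell by 0.93 (adjusted p = 0.0312), and this call was lost without wild type 1 or 3, heterozygote 3, or homozygote 1 or 3, at up to 0.0972. Quantile normalization (0.235) and a fit of only wild type and homozygote (0.0719) lost it too, and it is under 2-fold. Outside the wild types TwdlT reached 1 FPKM only in heterozygotes 2 and 3. It therefore passed the filter only through its wild types, the group where it is high. Its call is likewise a description and no support for a fall. With no filter its adjusted p was 0.0296 (limma).

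TwdlG, a Tweedle gene on 3R, rose. It had 1.59, 0.90 and 1.08 FPKM in wild types, 1.19, 1.55 and 1.94 in heterozygotes, and 4.42, 2.87 and 3.29 in homozygotes. Its log2 fold changes were 1.04 (adjusted p = 0.0104) against wild type and 0.82 (adjusted p = 0.0419) against heterozygote. The table lists Cpr50Cb on 2 loci and does not say which is the annotated gene on the plus strand. The first stayed at or below 0.205 FPKM in every library and was not tested. The second had 0.44, 0.70 and 0.82 FPKM in wild types, 1.03, 0.58 and 1.27 in heterozygotes, and 2.53, 2.04 and 2.95 in homozygotes. It rose by 1.08 (adjusted p = 0.00902) and 0.85 (adjusted p = 0.0367). Outside the homozygotes it reached 1 FPKM only in heterozygotes 1 and 3. It therefore passed the filter only through its homozygotes, the group where it is high. Its calls are a description and no support for a rise. With no filter the adjusted p was 0.00761 against wild type and 0.0305 against heterozygote (limma). For TwdlG and the second Cpr50Cb locus the calls against wild type held whichever library was left out. The call of TwdlG against heterozygote held only without wild type 1, wild type 2 or homozygote 2. That of the second Cpr50Cb locus held only without wild type 1 or homozygote 2. A filter at 5 FPKM removed both loci from the test.

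**Figure D2:**
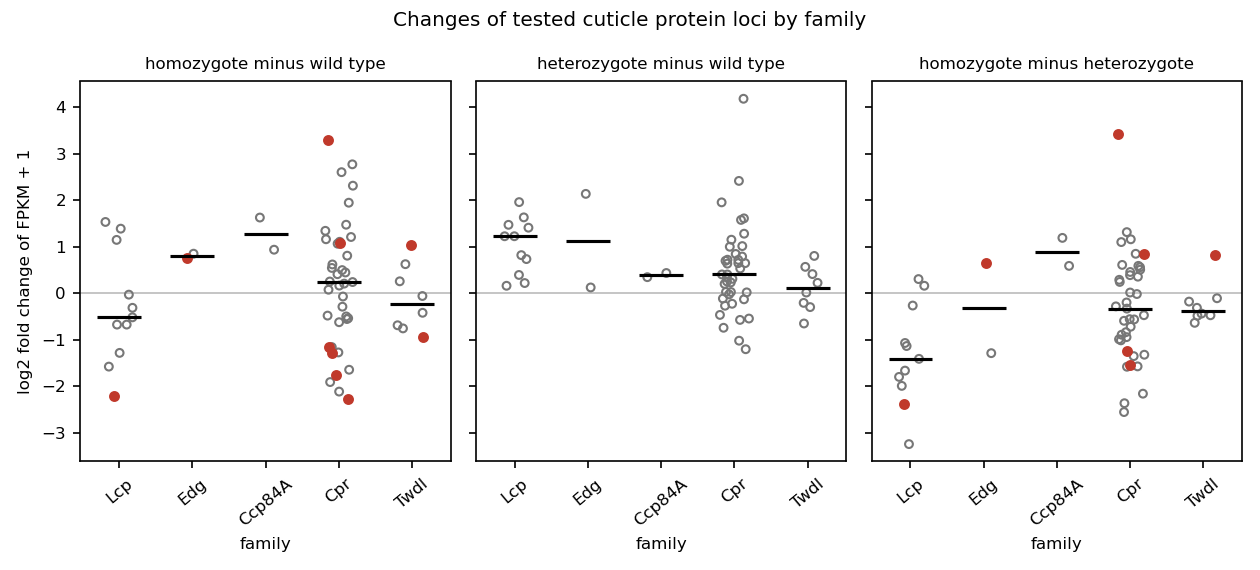
Log2 fold changes of FPKM + 1 for the 62 tested loci by family, in the 3 genotype comparisons; filled points passed an adjusted p of 0.05 and black bars are family medians. Called loci are few, 10 in the first panel, 0 in the middle and 7 in the last, and the Lcp medians are -0.52, 1.23 and -1.41.

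Against heterozygotes, the homozygotes had 4 members higher, or 6.45% against 6.27% of all loci, and 3 lower, or 4.84% against 1.42%. They are Cpr47Eb, the second Cpr50Cb locus, TwdlG and Edg91 on the higher side, and Cpr51A, Lcp65Ad and Cpr12A on the lower. Without heterozygote 2 or heterozygote 3, 0 members were called in either direction. The higher count was 0 without homozygote 3, 1 without wild type 3, and 2 without wild type 2, heterozygote 1 or homozygote 1. The lower count was 1 without heterozygote 1 or homozygote 1. These counts include members other than those named above. The rises without homozygote 1 were Cpr67B and Cpr67Fb, and the fall without heterozygote 1 was Cpr56F. The falls without homozygote 3 were Cpr51A, Lcp1/Lcp2 and Cpr65Au, and those without homozygote 2 included Cpr64Aa. Calls over all loci fell too, from 683 higher and 155 lower to 257 and 46 without heterozygote 2 and to 296 and 44 without heterozygote 3. A fit of only these genotypes lost Cpr50Cb (adjusted p = 0.0664), TwdlG (0.0658), Edg91 (0.0926), Cpr51A (0.0549) and Cpr12A (0.0658). A pseudocount of 0.1 lost Cpr50Cb (0.059) and TwdlG (0.0511), and Edg91 was lost with no filter (0.059) and under quantile normalization (0.0759). Libraries did not overlap for 4 members that were higher (17.5% of all loci) and for 17 that were lower, which is 27.4% of members against 15.6% of all loci. The 17 include Lcp1/Lcp2, Lcp3 and Lcp4.

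Heterozygotes and wild types could not be separated for any member by limma: 0 were higher, against 0.147% of all loci, and 0 lower, against 0.0643%. At an unadjusted p under 0.05 there were 2 higher (Cpr65Av and Cpr76Bc) and 1 lower (Cpr49Ab), against 369 higher and 253 lower of all 10887 loci. These 3 were named after their values were seen, and Cpr49Ab passed the filter only through its wild types. Libraries did not overlap for 6 members that were higher, against 8.25% of all loci, and 3 that were lower, against 6.18%. Cpr65Av, in the 65A cluster, had the largest log2 fold change. It had 10.01, 55.0 and 19.4 FPKM in wild types, 676, 406 and 274 in heterozygotes, and 255, 24.4 and 437 in homozygotes. Every heterozygote was above every wild type, and the homozygotes reached into both. Its log2 fold change was 4.19 with an adjusted p of 0.399.

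By family, the Cpr loci had 2 called rises and 4 called falls against wild type, and their median log2 fold change was 0.24 with 23 of 39 above 0. Twdl had 1 of each, with a median of -0.24 and 3 of 8 above 0. The summed level of Twdl was 52.0, 123 and 61.8 FPKM in wild types, 136, 88.8 and 105 in heterozygotes, and 232, 31.2 and 131 in homozygotes, of which TwdlX alone had between 16.2 and 197. Ccp84A was low apart from homozygote 1, where Ccp84Ab reached 19.6 FPKM against at most 2.29 in any other library; neither tested Ccp84A locus was called.

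Cuticle genes varied widely between libraries of one genotype. The median within-genotype SD of log2(FPKM + 1) was 0.869 for the 62 loci and 0.202 for all tested loci. It exceeded the 90th percentile of all tested loci in 41 members, or 66.1%. Among loci with a mean of 10 FPKM or more, the medians were 1.13 for 37 members and 0.174 for 6241 loci. The median spread was 1.53 for Lcp, 0.944 for Ccp84A, 0.868 for Edg, 0.820 for Cpr and 0.488 for Twdl, with 2 tested loci each for Ccp84A and Edg. These SDs are descriptions, since cuticle genes share libraries and are not independent.

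**Figure D3:**
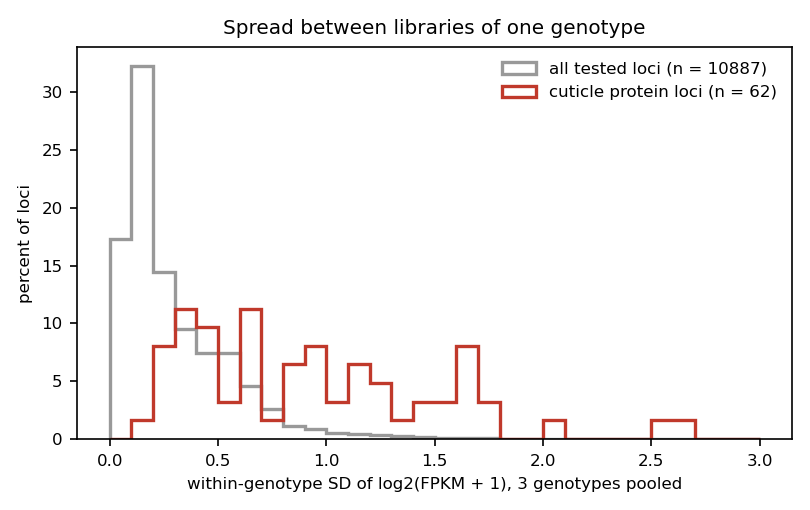
Percent of loci by within-genotype SD of log2(FPKM + 1), pooled over 3 genotypes, in steps of 0.1; values past the right edge are placed in the last step. Cuticle protein loci (n = 62) extend far to the right of all tested loci (n = 10887), with medians of 0.869 and 0.202.

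The spread had a shared direction. Wild type 2 was the highest wild type in 45 of 62 members, against 38.6% of all tested loci, and homozygote 2 the lowest homozygote in 47, against 41.2%. Of the 45, homozygote 2 was lowest in 42, homozygote 1 highest in 32 and heterozygote 1 highest in 36. Over all tested loci with wild type 2 highest, homozygote 2 was lowest in 2734 of 4205, homozygote 1 highest in 2570 and heterozygote 1 highest in 3106. A smaller set of 14 members ran the other way, with wild type 2 lowest; homozygote 2 was the highest homozygote in 11 of them, and homozygote 1 the lowest in 11. Of the 4778 tested loci with wild type 2 lowest, homozygote 2 was highest in 2548 (53.3%) and homozygote 1 lowest in 2109. The set with wild type 2 lowest holds the called falls Cpr12A, Cpr56F, TwdlT and Cpr49Ab. In Cpr12A, Cpr56F and TwdlT homozygote 2 was also the highest homozygote. It holds the called rise TwdlG as well, with homozygote 2 lowest. The called falls Cpr51A and Lcp65Ad had wild type 2 highest and homozygote 2 lowest. Whether library order bears on the calls was not tested.

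The most abundant genes of the opposite set were Cpr49Ac and Cpr78E. Cpr49Ac had 3520, 928 and 3322 FPKM in wild types, 939, 1128 and 1232 in heterozygotes, and 196, 2216 and 470 in homozygotes. Cpr78E had 3064, 2686 and 3957 in wild types, 1660, 2374 and 2673 in heterozygotes, and 146, 2269 and 1205 in homozygotes. Neither passed the test against wild type (adjusted p = 0.136 and 0.112); without homozygote 2 both were called, at -2.86 (0.0247) and -2.92 (0.0407). Cpr57A and Cpr67B, also among the 10 most abundant members, were flatter, at 234 to 580 and 203 to 485 FPKM over the 9 libraries. Cpr60D and Cpr49Af ran with the Lcp genes, from 98.9 to 930 and from 87.2 to 994 FPKM.

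**Figure D4:**
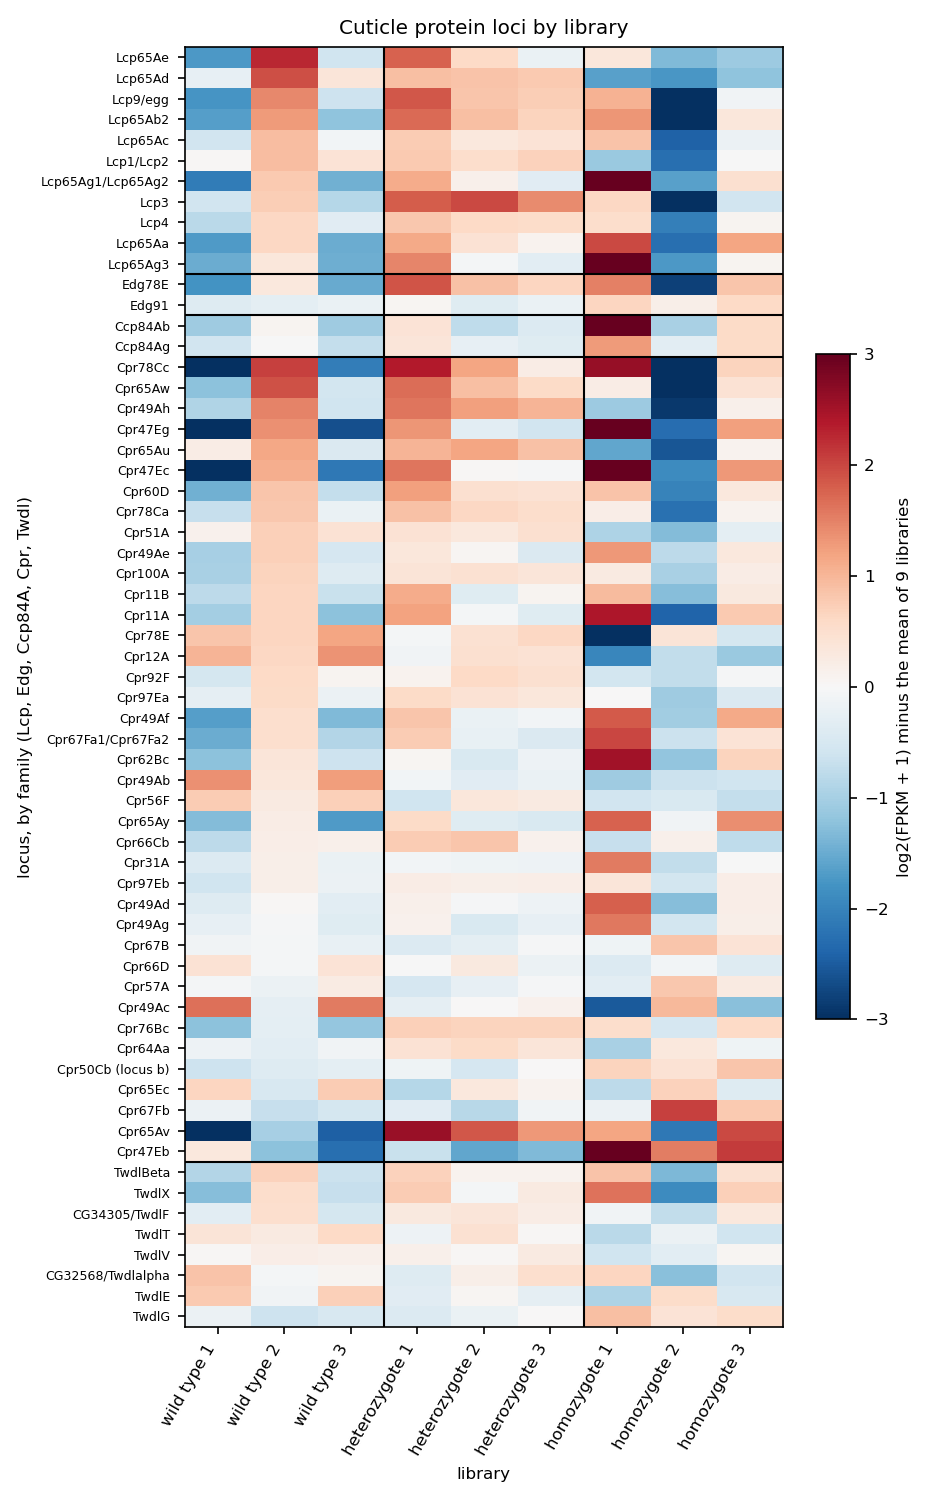
Log2(FPKM + 1) of the 62 tested loci minus each locus's mean over 9 libraries (red above, blue below, colours capped at 3), with families divided by lines and sorted inside a family by the value in wild type 2. The columns of wild types 1 and 3 and homozygote 2 share many blue cells, including most Lcp loci, and Cpr49Ac and Cpr49Ab show the reverse in the wild types.

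**Figure D5:**
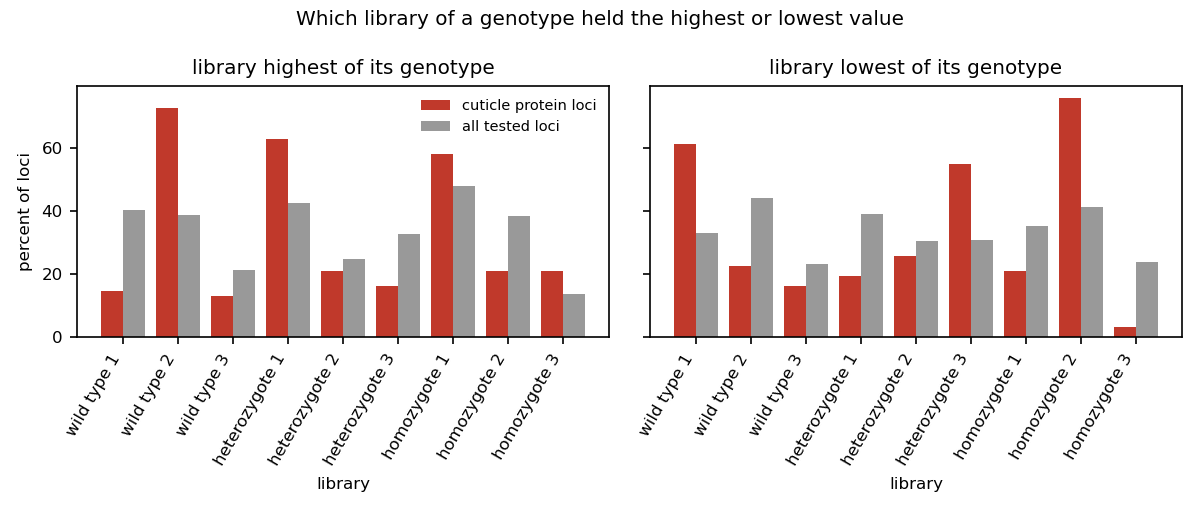
Percent of loci for which a library held the highest (left) or lowest (right) value of its genotype, for 62 cuticle protein loci and all 10887 tested loci. For cuticle loci, wild type 2 is highest in 72.6% and homozygote 2 lowest in 75.8%, against 38.6% and 41.2% of all loci.

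Genes outside the cuticle families shared these library orders, and their part in the cuticle results was not tested. The joint order of the Lcp loci, with wild type 2 the highest wild type and homozygote 2 the lowest homozygote, held for 42 of 62 cuticle loci (67.7%) and 25.1% of all tested loci. The reverse held for 11 (17.7%) and 23.4%. All 5 muscle genes and 7 of 10 genes for chitin synthesis and assembly had the order of the Lcp loci and none the reverse. Chitinases and deacetylases had 8 of 14 and 3 reversed. Midgut and fat body had 3 of 5 each, and epidermis 2 of 5 (kkv and mmy, also in chitin synthesis), with 0 reversed. Obstructor and Cpap3 proteins had 4 of 9 and 0 reversed. Trachea had 3 of 6 and 1 reversed, and other structural proteins 3 of 6 and 2. Glue had 0 of 7 and 1 reversed, and testis 0 of 5 in either order. Of 16 ecdysone response loci, 9 had the reverse order and 3 that of the Lcp loci, and of 7 imaginal disc genes 6 had the reverse and 1 the Lcp order. Tanning genes were divided, with 3 of 11 in each order: laccase2, Dat and amd with the Lcp loci, and Ddc, b and Pu against them. Ddc, the dopa decarboxylase that supplies dopamine for hardening the cuticle, had 262, 32.9 and 199 FPKM in wild types, 22.5, 35.5 and 29.0 in heterozygotes, and 10.4, 70.2 and 14.4 in homozygotes. ImpE2, an ecdysone-inducible gene of imaginal discs, had 155, 31.7 and 120, then 25.4, 55.4 and 39.2, then 0.72, 35.6 and 3.93. Both were chosen as examples after their values were seen. In both, wild types 1 and 3 and homozygote 2 were the high libraries of their genotypes. The phenoloxidase gene laccase2 ran the other way, at 19.8, 38.5 and 27.8 FPKM in wild types, 41.9, 35.2 and 31.5 in heterozygotes, and 47.5, 21.5 and 40.5 in homozygotes. Summed muscle genes ran with Lcp4, at 4608, 12738 and 5529 FPKM in wild types, 9548 to 15152 in heterozygotes, and 20113, 6587 and 16677 in homozygotes.

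On lists of other cuticle components, called shares are to be read against the 12.3% of all loci that rose and the 9.67% that fell. For homozygote against wild type, the chitin-binding obstructor and Cpap3 list had 1 of 9 tested loci higher and 0 lower. That locus is Gasp, a chitin-binding protein of the tracheal and epidermal cuticle, with 116, 218 and 128 FPKM in wild types, 313, 266 and 256 in heterozygotes, and 394, 446 and 554 in homozygotes (log2 fold change 1.63, adjusted p = 0.00527). Chitin synthesis and assembly had 1 of 10 higher (nst, an enzyme on the route to the chitin precursor) and 1 lower (knk, which organises chitin, by 0.33 on the log2 scale, adjusted p = 0.0271). Chitinases and deacetylases had 0 of 14 called, with 0 at an unadjusted p under 0.05 on the higher side and 4 on the lower, against 2122 and 2356 of 10887 loci. Tanning had 1 of 11 lower, Pu, the enzyme that starts synthesis of a cofactor for dopamine production, which fell by 2.26 (adjusted p = 0.0395). Ecdysone response had 1 of 16 higher (ImpL1) and 2 lower (ImpE2 and ImpE3, the latter by 2.37, adjusted p = 0.00554). Structural proteins outside the naming rule had 0 of 6, and at an unadjusted p under 0.05 also 0.

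Among tissue markers, for the same comparison and background, called loci were 1 of 7 lower for glue (Sgs8), 1 of 5 for fat body (Fbp1), 1 of 5 for epidermis (knk again) and 2 of 5 for testis (sa and aly). One midgut locus of 5 was higher (Amy-d), and muscle, imaginal disc and trachea had 0 of 5, 7 and 6. At an unadjusted p under 0.05 (limma), 6 of 7 glue, 4 of 5 testis, 2 of 5 epidermis, 1 of 5 fat body and 1 of 7 disc loci were lower. On the higher side were 2 of 5 midgut and 1 of 7 disc loci. All glue loci had negative log2 fold changes, with a median of -2.22. Against heterozygotes, 7 of 7 glue loci were lower at that unadjusted level, as were 1236 of all 10887 loci. Called there were CG16886 and ImpE3 lower and ImpL1, Amy-p and Amy-d higher. Heterozygotes had none called against wild type.

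The ratio of Lcp4 to Lcp1/Lcp2 was examined after both genes' values had been seen. It was 0.920, 1.34 and 0.973 in wild types, 1.67, 1.70 and 1.47 in heterozygotes, and 5.05, 1.90 and 1.73 in homozygotes. The 3 genotypes did not overlap and followed the number of mutant copies. No test is given for a ratio chosen in this way. The separation was narrow, at 1.73 in homozygote 3 against 1.70 in heterozygote 2. Among the 120 pairs of the 16 members with a mean of 100 FPKM or more, 3 (2.5%) had a ratio that separated the 3 genotypes in order. This pair is among them, and the pairs reuse the same loci. The share is therefore a description and no measure of how unusual the ratio is.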

How the data were processed

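The deposited table gives FPKM, computed by the authors per locus and library. Per the submitters' processing notes, the tools were HISAT2 2.1.0, Cufflinks 2.2.1 and limma and the build dm6; the annotation is not given in the sources used here. Per the labels, the libraries were strand-specific with paired reads of 75 bases. The 50244 lines were reduced to 1 per locus. Absolute depth is unknown, and relative depth was read from the step between low values.

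Loci with at least 1 FPKM in at least 3 libraries were tested (10887) with limma 3.58.1 in R 4.3.3 on log2(FPKM + 1), the pseudocount of 1 understating changes of low genes. The 3 genotypes were fitted together with a trended variance. Benjamini-Hochberg adjustment was over all tested loci at 0.05. The steps were tested on simulated data. The labels do not say that libraries came from separate cultures or animals, so p-values measure only the spread between these libraries. Members and lists were chosen with earlier results of these data known. Named were Lcp1 to Lcp4, Edg genes, the 10 largest called changes per direction and comparison, the 10 most abundant members, Atg6, and called or most abundant list genes; other genes are marked in the text or illustrate a cluster. Alternatives were 11 other settings and leaving out each of the 9 libraries. Figures were drawn with matplotlib 3.10.9.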

Additional observations from a re-analysis of the deposited data

How the results depend on the processing

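Of the 17 gene changes reported as called, 331 recomputed values gave 0 reversals, while 249 kept the call and 82 lost it. Fits in which a locus fell out of the test are not counted there. A filter at 5 FPKM removed Cpr49Ab, TwdlT, TwdlG and the second Cpr50Cb locus, and leaving out any wild type removed Cpr49Ab. For homozygote against wild type (4 members higher, 6 lower), a filter at 5 FPKM gave 2 higher, and a fit of only the 2 genotypes gave 3 lower. Leaving out a library gave 3 to 10 higher and 1 to 9 lower. For homozygote against heterozygote (4 higher, 3 lower), the higher count was 2 with a pseudocount of 0.1, 2 with a filter at 5 FPKM, 1 with only 2 genotypes and 1 with a 2-fold minimum; the lower count was 1 with only 2 genotypes. Leaving out a library gave 0 to 4 higher and 0 to 3 lower. Heterozygote against wild type had 0 calls under every setting run. A replicate block gave 3 lower against wild type, and 1 higher and 0 lower against heterozygote. Libraries with the same number did not deviate together (correlations from -0.647 to 0.331 over 9 pairs), so the numbers were not taken to pair libraries. Twdl and Cpr differ by summary: log2 ratios of summed FPKM for homozygote to wild type are 0.73 and -0.48, but the median changes are -0.24 and 0.24, and without homozygote 1 the Twdl sum ratio was 0.03. The causes were not tested.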
